A study of Mus musculus with 9 samples.

Results

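The genes described here are the 10 listed as NF-kB transcription factor subunits (Nfkb1, Nfkb2, Rel, Rela and Relb) and feedback inhibitors (Nfkbia, Nfkbib, Nfkbie, Nfkbiz and Tnfaip3). They were taken by gene symbol from a table of 52183 genes, and each symbol had 1 row. All 10 passed the filter of a mean of 1 FPKM over the libraries, as did 11796 genes in all. Their messenger RNA was sequenced in sorted endothelial cells, which line blood vessels, from the marrow of mouse long bones. The 9 libraries form 3 groups of 3: mice aged 18 months labelled as Thbs1 knockouts, control mice aged 18 months, and control mice aged 3 months. All mice received an antibody against VE-cadherin by injection behind the eye 10 minutes before sacrifice, and 2 ng of total RNA went into a full-length cDNA kit for low input. Thbs1 encodes the secreted matrix protein thrombospondin-1. Strain, the altered part of Thbs1 and any restriction of the deletion to a cell type are not in the labels. Nothing in them ties each library to its own mouse, and p-values therefore reflect the spread between libraries, which may be technical.

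NF-kB is a dimer of subunits that share a DNA-binding domain, the Rel homology region. In resting cells IkB proteins hold the dimers in the cytoplasm. Signals from receptors for tumour necrosis factor, interleukin-1 and microbial products activate a kinase complex that marks IkB for destruction, and the freed dimers enter the nucleus. Among the genes they switch on are those of their own inhibitors, which ends the response. In endothelium the pathway is known for inducing leukocyte adhesion molecules and chemokines.

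The level of Thbs1 itself went against the label. It averaged 21.6 ± 3.46 FPKM in libraries labelled knockout, 0.887 ± 0.257 FPKM in the 18-month controls and 4.21 ± 0.331 FPKM in the 3-month controls (SD, n = 3 each). FPKM are sequenced fragments scaled to gene length and library depth. Which exons the reads came from cannot be seen in such a value, and the group is called labelled knockout throughout. Recovered depth was 27420000 to 30420000 fragments in libraries labelled knockout, 22160000 to 24590000 in the 18-month controls and 22860000 to 23860000 in the 3-month controls. All 10 endothelial markers on the list were above 1 FPKM on average. Their summed level was 1969 to 1989 FPKM in libraries labelled knockout, 2170 to 2282 FPKM in the 18-month controls and 1993 to 2016 FPKM in the 3-month controls, with Cdh5, the gene for VE-cadherin, at 153 to 177 FPKM. Of the 6 pan-leukocyte, T and NK cell markers none reached a mean of 1 FPKM, and Ptprc was at 0.03 to 0.13 FPKM. Of the 10 monocyte, macrophage and neutrophil markers 7 did, with summed levels of 49.6 to 145 FPKM in libraries labelled knockout, 65.1 to 290 FPKM in the 18-month controls and 31.8 to 193 FPKM in the 3-month controls. The 7 B and plasma cell markers summed to 4.40 to 1785 FPKM in libraries labelled knockout, 477 to 3014 FPKM in the 18-month controls and 5.86 to 517 FPKM in the 3-month controls, with the immunoglobulin gene Igkc alone at 0.87 to 2319 FPKM over the 9 libraries. No marker on these lists was at 0 in all 9 libraries. Between the 2 groups aged 18 months the sums of the leukocyte lists overlapped and that of the endothelial list did not. The tight junction gene Cldn5 averaged 476 ± 81.3 FPKM in libraries labelled knockout and 810 ± 49.6 FPKM in the 18-month controls, and without it the endothelial sums overlapped, at 1400 to 1557 FPKM in libraries labelled knockout and 1305 to 1483 FPKM in the 18-month controls. Of the 10 endothelial markers 7 had the higher mean in libraries labelled knockout. The 8 stromal, osteoblast and adipocyte markers summed to 15.9 to 27.1 FPKM in libraries labelled knockout, 19.5 to 20.3 FPKM in the 18-month controls and 38.6 to 66.4 FPKM in the 3-month controls, so both groups aged 18 months lay below the 3-month controls without overlap. Their part in the values below was not tested. Within the groups, 18-month control replicate 3 stood apart in its trend with GC content, and values with that trend removed are given after the comparisons. In RNA from sorted cells, fewer cells of a type and less RNA per cell cannot be told apart.

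All 10 genes were expressed, and the inhibitor Nfkbia stood far above the rest. Nfkbia encodes IkB-alpha, the main IkB that is resynthesised after NF-kB activation, and its level was 518 to 833 FPKM over the 9 libraries, above 99.6% of the 11796 genes tested. The next gene, Nfkbiz, encodes the inducible nuclear protein IkB-zeta and was at 82.5 to 234 FPKM. It is counted with the inhibitors because it was listed there, and its action on NF-kB was not tested. Rela, which encodes the transactivating subunit p65, was at 52.9 to 82.6 FPKM. Nfkbie, which encodes IkB-epsilon, was at 34.5 to 53.0 FPKM, and Nfkb2, the gene for p100 and its product p52, at 32.7 to 49.0 FPKM. Relb, the usual partner of p52, was at 15.3 to 23.4 FPKM. Nfkbib (IkB-beta) was at 14.4 to 19.8 FPKM and Nfkb1, the gene for p105 and p50, at 15.7 to 17.1 FPKM. Tnfaip3, which encodes the ubiquitin-editing enzyme A20, was at 6.69 to 15.6 FPKM, and Rel, which encodes c-Rel, was lowest at 1.68 to 5.33 FPKM.

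In that order of levels, Nfkbia, Nfkb2, Nfkb1 and Tnfaip3 each lay above the next gene with no overlap over the 9 libraries. Relb, Nfkbib and Nfkb1 could not be ordered by level, since Relb exceeded Nfkbib in 4 of 9 libraries and Nfkbib exceeded Nfkb1 in 6. Nfkbiz exceeded Rela in 8 of 9 libraries, the exception being 18-month control replicate 3. The genes also differed in how much they varied. The highest library of Nfkb1 was 1.09 times the lowest, against 2.84 times for Nfkbiz, 2.33 times for Tnfaip3 and 3.17 times for Rel. Even the lowest value of Rel rested on about 308 recovered fragments, a counting error of 5.70%, which covers counting only.

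**Figure D1:**
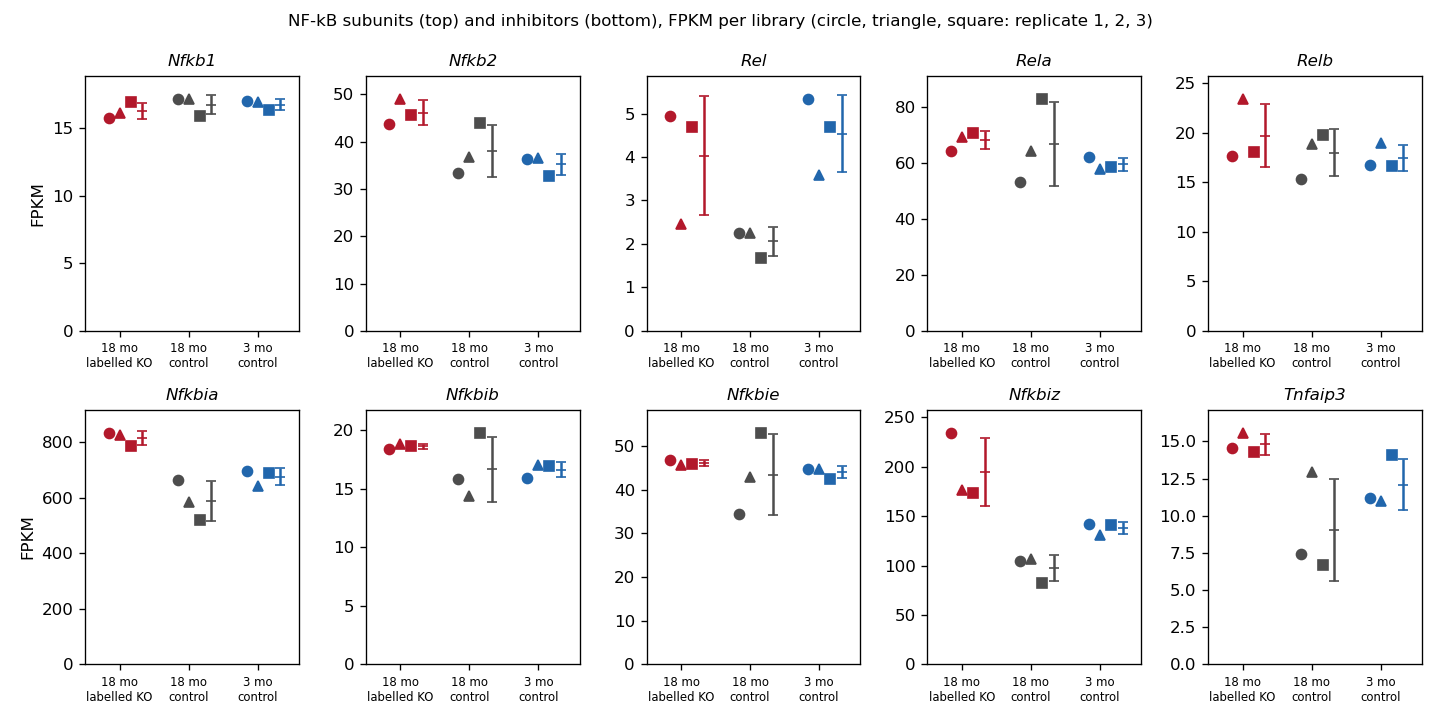
FPKM (y axis, linear from 0) of the 5 NF-kB subunit genes (top row) and the 5 inhibitor genes (bottom row) in libraries labelled knockout (left), 18-month controls (middle) and 3-month controls (right). Each symbol is 1 library, and the bar beside it is the group mean with its SD. Nfkbia, Nfkbiz, Rel and Tnfaip3 are higher in all 3 libraries labelled knockout than in any 18-month control, while Nfkb1 stays between 15.7 and 17.1 FPKM in every library.

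Promoters are shown because several of these genes are textbook targets of the factor they encode or inhibit. RefSeq windows on GRCm38.p6, from 250 bases before to 50 bases after the start of transcription, were held for 7 of the 10 genes (Nfkb2, Rel, Rela, Nfkbia, Nfkbib, Nfkbie and Tnfaip3). The kB consensus, a motif of 10 bases searched on both strands with overlapping matches merged, was present in 5 of these 7 genes. Over all 27025 symbols in the table it was present for 5.14%, and in 4.51% of all 32851 windows. The 4 windows below, each 5′ to 3′ on the strand of its gene, hold a match in capitals; they belong to 3 genes whose values separated the groups aged 18 months (Nfkbia, Rel and Tnfaip3) and to Nfkb2, whose values did not.
Nfkbia, chr12:55492598-55492897, minus strand: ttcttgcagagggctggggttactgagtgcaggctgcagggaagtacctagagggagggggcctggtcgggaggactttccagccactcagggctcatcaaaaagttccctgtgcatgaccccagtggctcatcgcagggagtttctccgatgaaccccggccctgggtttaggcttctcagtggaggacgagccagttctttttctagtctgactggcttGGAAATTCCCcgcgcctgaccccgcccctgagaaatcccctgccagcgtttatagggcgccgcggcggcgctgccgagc
Rel, chr11:23770920-23771219, minus strand: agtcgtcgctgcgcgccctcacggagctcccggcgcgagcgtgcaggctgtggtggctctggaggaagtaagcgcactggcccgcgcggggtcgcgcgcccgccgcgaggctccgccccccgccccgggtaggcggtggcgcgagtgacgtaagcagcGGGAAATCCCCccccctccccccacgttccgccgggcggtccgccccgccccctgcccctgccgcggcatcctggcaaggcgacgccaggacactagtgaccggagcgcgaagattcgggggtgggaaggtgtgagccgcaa
Tnfaip3, chr10:19015361-19015660, minus strand: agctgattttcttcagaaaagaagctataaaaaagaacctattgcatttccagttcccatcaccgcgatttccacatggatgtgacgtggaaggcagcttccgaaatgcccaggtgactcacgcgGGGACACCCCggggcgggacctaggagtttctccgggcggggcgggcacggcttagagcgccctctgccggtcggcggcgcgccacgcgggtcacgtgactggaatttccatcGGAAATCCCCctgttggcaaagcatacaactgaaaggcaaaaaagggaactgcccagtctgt
Nfkb2, chr19:46304487-46304786, plus strand: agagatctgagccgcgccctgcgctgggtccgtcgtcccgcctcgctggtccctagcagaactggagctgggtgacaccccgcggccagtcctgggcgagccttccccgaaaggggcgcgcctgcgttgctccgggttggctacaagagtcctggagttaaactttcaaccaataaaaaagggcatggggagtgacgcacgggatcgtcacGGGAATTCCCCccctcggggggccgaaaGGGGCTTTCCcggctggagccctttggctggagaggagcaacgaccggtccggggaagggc
In Nfkbia the match reads GGGAATTTCC on the opposite strand and lies 29 to 20 bases before the start. In Rel 3 overlapping matches form 1 site, 92 to 82 bases before the start. The Tnfaip3 window shown holds GGGACACCCC 125 to 116 bases before the start and GGGGATTTCC, on the opposite strand, 12 to 3 bases before it. In the Nfkb2 window shown the matches lie 39 to 29 and 11 to 2 bases before the start. Both genes have further windows, for other starts: those of Nfkb2 also hold matches, and that of Tnfaip3 holds none. In all, 7 of the 10 windows of the members hold a match, and the further windows of Nfkb2 overlap and share a match site. Nfkbie holds GGGGGATTCC 106 to 97 bases before its start, and the windows of Rela and Nfkbib hold no match. The windows shown do not include Nfkbie, whose values overlapped between the groups aged 18 months, and none was held for Nfkbiz. A match describes the letters of a window and says nothing of binding.

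The comparison of 18-month with 3-month controls asks how age relates to this pathway in marrow endothelium. Fold changes are differences of log2(FPKM + 1), tested with limma over all genes that passed the filter, and a gene was called at an adjusted p under 0.05. No member passed the test, although 4 members had estimates below -0.2. Rel was at 2.24, 2.26 and 1.68 FPKM in the 18-month controls, against 5.33, 3.58 and 4.69 FPKM in the 3-month controls. Every 18-month value was thus below every 3-month value (log2 fold change -0.85 ± 0.21 SE, limma adjusted p = 0.0565). Nfkbiz was at 104, 106 and 82.5 FPKM in the 18-month controls, against 142, 131 and 141 FPKM in the 3-month controls. These groups also did not overlap (log2 fold change -0.50 ± 0.14 SE, limma adjusted p = 0.0698). Tnfaip3 was at 7.40, 12.96 and 6.69 FPKM in the 18-month controls, against 11.2, 11.0 and 14.1 FPKM in the 3-month controls, and replicate 2 of the older group lay within the younger range (log2 fold change -0.43, limma adjusted p = 0.197). Without that replicate the log2 fold change of Tnfaip3 was -0.70 (limma adjusted p = 0.0366). Nfkbia was at 663, 582 and 518 FPKM in the 18-month controls, against 695, 641 and 690 FPKM in the 3-month controls, with replicate 1 of the older group above the lowest younger value (log2 fold change -0.21, limma adjusted p = 0.233).

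The remaining 6 members had log2 fold changes with age of -0.04 to 0.14 and overlapped between the groups. Nfkb1 averaged 16.7 ± 0.710 FPKM in the 18-month controls and 16.7 ± 0.379 FPKM in the 3-month controls (SD, n = 3 each), with a 95% interval of the log2 difference from -0.18 to 0.18. For Rela, at 52.9 to 82.6 FPKM in the 18-month controls and 57.8 to 62.0 FPKM in the 3-month controls, that interval ran from -0.18 to 0.45. Of the 10 members 0 were called by limma in either direction, where 3.99% of the 11796 genes tested were called, 1.2% higher and 2.8% lower, and 2 had an unadjusted p under 0.05. Among all 11796 genes at least 2874 reached that unadjusted level in limma, a larger share than 2 of 10. Without overlap between the groups 2 members, Rel and Nfkbiz, were lower and 0 higher. Of all genes 21.8% were lower and 13.9% higher in this way, 35.7% in all. Where groups did not overlap, here and below, the exact permutation p (two-sided) was 0.1, the floor for 3 against 3 libraries. The median log2 fold change of the members was -0.02, and that of all genes was -0.05. Rel was called in 5 of the 20 alternative fits that tested it, with limma adjusted p from 0.0163 to 0.191. They were array weights, the fit of these 2 groups alone, the fit without labelled knockout replicate 2, the removal of the GC and length trend, and limma voom on recovered fragments. Voom called 1 member (log2 fold change of Rel -1.14, adjusted p = 0.0455). Nfkbiz was called with array weights (limma adjusted p = 0.0271) and without labelled knockout replicate 1 (limma adjusted p = 0.0429).

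Setting libraries labelled knockout against the 18-month controls addresses the labelled genotype at a fixed age, with the reservation on Thbs1 given above. Nfkbiz and Nfkbia, both listed with the inhibitors, rose, and no subunit gene passed the test. Nfkbiz (ENSMUSG00000035356, GRCm38 chromosome 16, 55811375 to 55838899, minus strand) was at 234, 177 and 173 FPKM in libraries labelled knockout, against 104, 106 and 82.5 FPKM in the 18-month controls. Every value of the first group exceeded every value of the second, and the ratio of means was 1.99 (log2 fold change 0.98, 95% interval 0.67 to 1.29, limma adjusted p = 0.00643). Nfkbia (ENSMUSG00000021025, chromosome 12, 55489410 to 55492647, minus strand) was at 833, 825 and 787 FPKM in libraries labelled knockout, against 663, 582 and 518 FPKM in the 18-month controls. Again the groups did not overlap, and the ratio of means was 1.39 (log2 fold change 0.48, 95% interval 0.24 to 0.71, limma adjusted p = 0.0353). The call of Nfkbiz held in each of the 21 alternative fits (limma adjusted p = 0.00254 to 0.0385). That of Nfkbia was lost in 7 of the 9 fits without 1 library (limma adjusted p = 0.0202 to 0.120 over the 9), and held without labelled knockout replicate 2 or 18-month control replicate 1. It was also lost with no filter on low values (limma adjusted p = 0.184) and in the fit of these 2 groups alone (limma adjusted p = 0.153).

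Tnfaip3 and Rel separated the groups without passing the test. Tnfaip3 (ENSMUSG00000019850, chromosome 10, 19000910 to 19015657, minus strand) was at 14.5, 15.6 and 14.3 FPKM in libraries labelled knockout, against 7.40, 12.96 and 6.69 FPKM in the 18-month controls. The 18-month control replicate 2 was close to the labelled knockout range and the other two were well below it (log2 fold change 0.71 ± 0.20 SE, limma adjusted p = 0.0745). Without that library the log2 fold change was 0.97 (limma adjusted p = 0.0105), and limma voom on recovered fragments gave 0.78 (adjusted p = 0.0481). Rel (ENSMUSG00000020275, chromosome 11, 23736847 to 23770970, minus strand) was at 4.94, 2.46 and 4.69 FPKM in libraries labelled knockout, against 2.24, 2.26 and 1.68 FPKM in the 18-month controls. Labelled knockout replicate 2 stood just above that range (log2 fold change 0.68 ± 0.21 SE, limma adjusted p = 0.0940). Without it the log2 fold change was 0.93 (limma adjusted p = 0.0119).

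The other subunits and inhibitors overlapped between these groups. Nfkb2 was at 43.8, 49.0 and 45.6 FPKM in libraries labelled knockout, against 33.4, 36.7 and 44.0 FPKM in the 18-month controls (log2 fold change 0.28, limma adjusted p = 0.165). Only 18-month control replicate 3 reached the labelled knockout range. Rela was at 64.3, 69.1 and 70.5 FPKM in libraries labelled knockout, against 52.9, 64.2 and 82.6 FPKM in the 18-month controls, a wider range on both sides (95% interval of the log2 difference -0.26 to 0.37). Relb, Nfkbib and Nfkbie had log2 fold changes of 0.12, 0.16 and 0.11, and Nfkb1 of -0.04, with limma adjusted p from 0.404 to 0.818. Exons of Nfkbib share 314 bases, 14.5% of its exon length, with the opposite-strand gene Ccer2. Those of Nfkb2 share 531 bases, 11.6%, with an opposite-strand long non-coding RNA. The strand setting of the counting is not given in the sources used here, so the values of both genes are uncertain.

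In all, 2 of 10 members were called higher and 0 lower, where 4.79% of all genes were called, 2.78% higher and 2.01% lower. Without overlap 4 of 10 members were higher and 0 lower, beside 12.1% and 11.1% of all genes, 23.2% in all. The median log2 fold change was 0.22 over the members, 0.48 over the 5 inhibitors and 0.12 over the 5 subunits, beside 0.00 over all genes tested. The estimates of 9 members were above 0, and that of Nfkb1 was at -0.04. The same 9 were above 0 after median-ratio scaling and after quantile normalization, while with the GC and length trend removed Nfkb1 was above 0 and Nfkbie below. This comparison and the one with age share the 18-month controls, so a low value there moves both, in opposite directions.

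**Figure D2:**
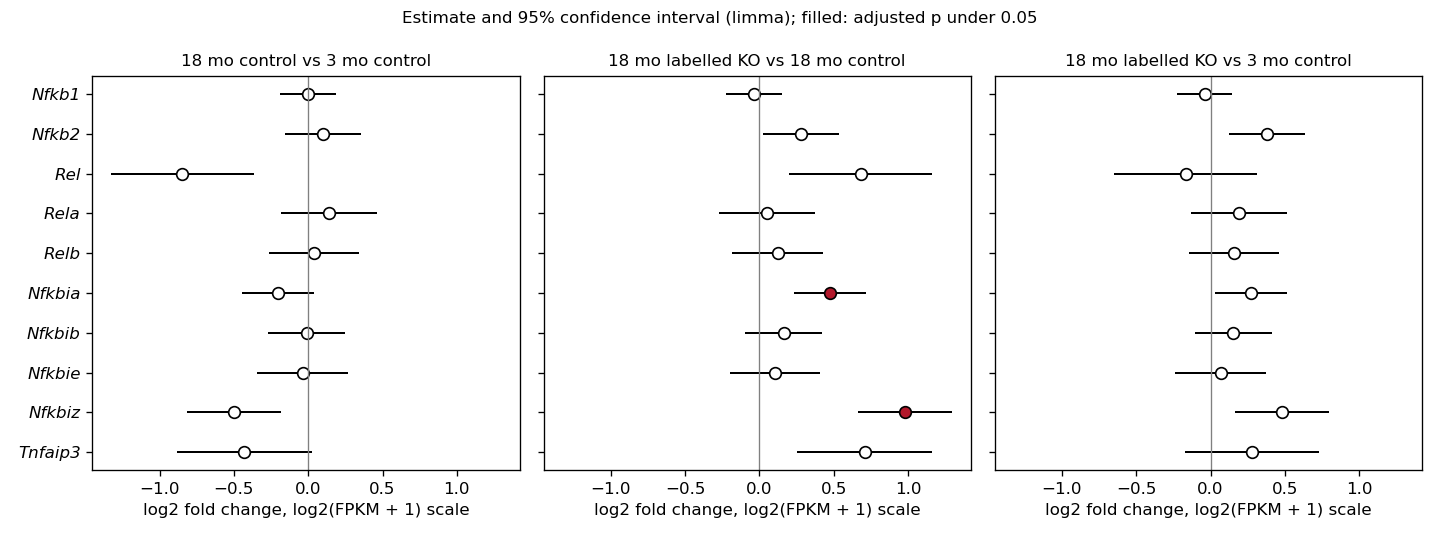
Log2 fold change on the log2(FPKM + 1) scale (x axis) of each of the 10 genes (rows), with its 95% confidence interval from limma, in the 3 comparisons. Filled points had a limma adjusted p under 0.05, which holds for Nfkbia (0.48) and Nfkbiz (0.98) in libraries labelled knockout against the 18-month controls and for no gene in the other panels.

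The libraries labelled knockout were set against the 3-month controls last, where age and labelled genotype differ together. No member passed the test, where 0.212% of all genes did (0.0848% higher and 0.127% lower), 3 members had an unadjusted p under 0.05, and limma voom called 0. Among all 11796 genes at least 1034 reached that unadjusted level in limma. Nfkbiz averaged 195 ± 34.4 FPKM in libraries labelled knockout and 138 ± 6.34 FPKM in the 3-month controls (SD, n = 3 each, log2 fold change 0.48, limma adjusted p = 0.304). Nfkb2 averaged 46.1 ± 2.64 FPKM in libraries labelled knockout and 35.3 ± 2.20 FPKM in the 3-month controls (log2 fold change 0.38, limma adjusted p = 0.319). For Nfkbia the averages were 815 ± 24.8 FPKM in libraries labelled knockout and 675 ± 29.5 FPKM in the 3-month controls (log2 fold change 0.27, limma adjusted p = 0.477). In 7 of 10 members, among them all 5 inhibitors, every library labelled knockout lay above every 3-month control, and in 0 below. Of all genes 8.46% were above and 14% below in this way, 22.4% in all. The log2 fold changes of these 7 ran from 0.07 to 0.48. Nfkbie, at 46.9, 45.6 and 45.9 FPKM in libraries labelled knockout against 44.8, 44.8 and 42.4 FPKM in the 3-month controls, differed by 0.07 on the log2 scale. Rel, the member with the lowest estimate with age, overlapped here and averaged 4.03 ± 1.37 FPKM in libraries labelled knockout and 4.53 ± 0.885 FPKM in the 3-month controls (log2 fold change -0.17).

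Nfkbia made up most of the summed level of the 10 genes. Its share of that sum was 64.4%, 66.5% and 65.9% in libraries labelled knockout, 70.1%, 64.9% and 61.4% in the 18-month controls, and 66.5%, 65.5% and 66.7% in the 3-month controls. The summed FPKM of the 5 inhibitors was 6.67 to 7.83 times that of the 5 subunits in libraries labelled knockout, 4.15 to 6.82 times in the 18-month controls and 6.31 to 7.03 times in the 3-month controls. The 18-month controls had the widest range in both measures, and in both it was replicate 3 that was lowest.

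That replicate divided the members by base composition. In 18-month control replicate 3 the 5 members of higher GC content, Nfkb2, Rela, Relb, Nfkbib and Nfkbie at 55.4% to 59.4%, each had the highest value of the group. The other 5, Nfkb1, Rel, Nfkbia, Nfkbiz and Tnfaip3 at 42.5% to 52.9%, each had the lowest. Over all genes tested, the level in this library was higher by 0.21 log2 units per 10 points of GC content relative to the mean of the 9 libraries, where the other 8 had slopes of -0.10 to 0.09. With each library's trend with GC content and length removed, a setting chosen after seeing the data, the log2 fold change of the libraries labelled knockout against the 18-month controls was 1.07 for Nfkbiz (limma adjusted p = 0.00948) and 0.43 for Nfkbia (limma adjusted p = 0.0352). Tnfaip3 then passed the test (0.83, limma adjusted p = 0.0482). With age Rel passed it as well (-1.01, limma adjusted p = 0.0469), and the estimates of all 5 subunits with age were then below 0.

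**Figure D3:**
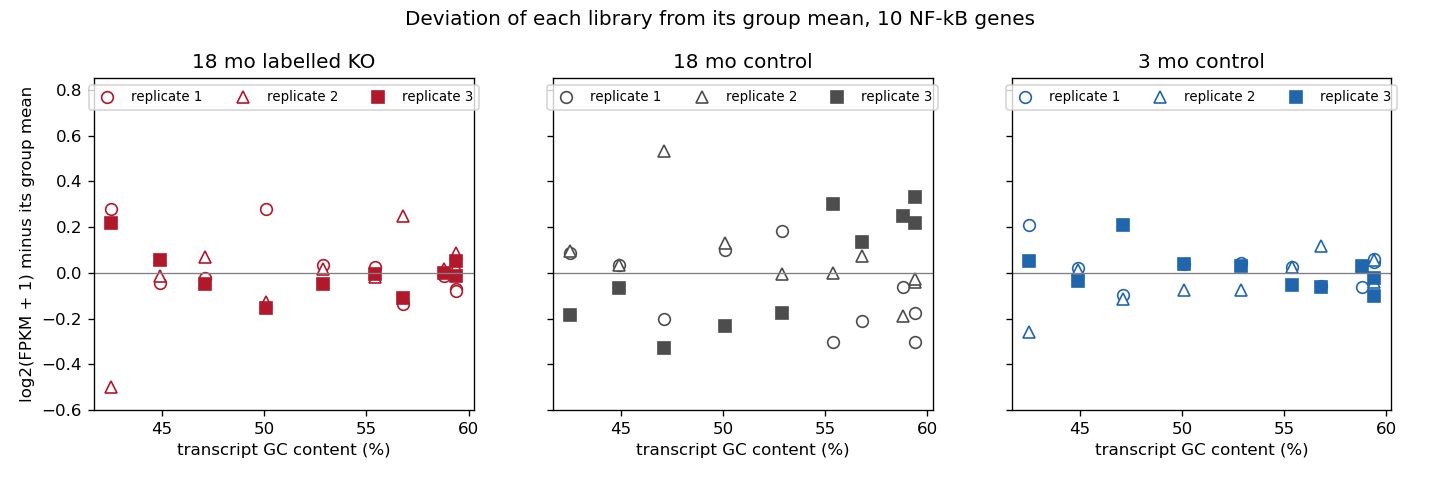
Deviation of each library from its group mean on the log2(FPKM + 1) scale (y axis) against the GC content of the longest transcript (x axis, percent) for the 10 genes, in libraries labelled knockout, the 18-month controls and the 3-month controls. In the middle panel replicate 3 (filled squares) lies below 0 for the 5 genes up to 52.9% GC and above 0 for the 5 genes from 55.4% GC.

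Other genes of the pathway were taken from 4 lists, ordered from receptor to target. Of 21 tested receptors and adaptors, 2 rose and 1 fell in libraries labelled knockout against the 18-month controls, 14.3% of the list beside 4.79% of all genes, with a list median of 0.07. Myd88, the adaptor of Toll-like and interleukin-1 receptors, averaged 83.7 ± 9.33 FPKM in libraries labelled knockout and 52.6 ± 1.80 FPKM in the 18-month controls (SD, n = 3 each, limma adjusted p = 0.0119). Ripk1, a kinase on the tumour necrosis factor receptor, averaged 17.8 ± 3.73 FPKM in libraries labelled knockout and 11.5 ± 0.838 FPKM in the 18-month controls (limma adjusted p = 0.0470). Tnfrsf11a, which encodes RANK, a receptor of the non-canonical arm, fell to 1.56 ± 0.241 FPKM in libraries labelled knockout, against 3.05 ± 0.533 FPKM in the 18-month controls (limma adjusted p = 0.0280). With age 1 receptor fell, Tlr3, the sensor of double-stranded RNA, to 5.64 ± 0.644 FPKM in the 18-month controls, against 9.61 ± 1.07 FPKM in the 3-month controls (limma adjusted p = 0.0343). That 1 call is 4.76% of the list, near the 3.99% of all genes called with age. Leaving out 1 library, the list had 3 calls against the 18-month controls without labelled knockout replicate 2, 2 without 18-month control replicate 1 and 1 in the other 7 fits. With age it had 3 calls without labelled knockout replicate 2, 2 without labelled knockout replicate 1 or 18-month control replicate 1, and 0 without labelled knockout replicate 3, 18-month control replicate 3 or any 3-month control.

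None of the 9 tested kinases and kinase adaptors passed the test in any comparison. An unadjusted p under 0.05 was reached by 3 of them in libraries labelled knockout against the 18-month controls, by 4 with age and by 1 in libraries labelled knockout against the 3-month controls, and limma voom called 0, 2 (both lower) and 0. In limma that unadjusted level was reached by at least 2744, 2874 and 1034 of all 11796 genes, in the same order of comparisons. The smallest p with age belonged to Tab2, an adaptor of the kinase TAK1, at 3.28 ± 0.428 FPKM in the 18-month controls and 5.13 ± 0.336 FPKM in the 3-month controls (limma adjusted p = 0.0502). Chuk, which encodes IKK-alpha, was next at 10.9 ± 2.20 FPKM in the 18-month controls and 16.3 ± 0.991 FPKM in the 3-month controls (limma adjusted p = 0.0581). Against the 18-month controls the same genes were at 4.62 ± 0.682 FPKM (Tab2) and 14.4 ± 1.36 FPKM (Chuk) in libraries labelled knockout (limma adjusted p = 0.101 and 0.136).

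Of 13 tested other inhibitors and modulators, 2 rose and 0 fell in libraries labelled knockout against the 18-month controls (15.4%, beside 4.79% of all genes). With age 0 rose and 1 fell (7.69%, beside 3.99% of all genes), a share that rests on that 1 gene. Zc3h12a encodes Regnase-1, a nuclease that degrades inflammatory messenger RNAs. It averaged 41.1 ± 8.60 FPKM in libraries labelled knockout and 19.3 ± 1.72 FPKM in the 18-month controls (log2 fold change 1.03, limma adjusted p = 0.00583). Nfkbid, which encodes the nuclear protein IkB-NS, averaged 42.6 ± 1.69 FPKM in libraries labelled knockout and 29.8 ± 5.22 FPKM in the 18-month controls (log2 fold change 0.51, limma adjusted p = 0.0383). With age Zc3h12a fell, to 19.3 ± 1.72 FPKM in the 18-month controls, against 31.0 ± 1.39 FPKM in the 3-month controls (limma adjusted p = 0.0418). Against the 18-month controls the list had 2 calls without labelled knockout replicate 2 or 18-month control replicate 2, and 1 call without any other library. The call of Zc3h12a with age was lost without any 1 of the 18-month or 3-month controls, with no filter and after median-ratio scaling.

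Of 32 listed NF-kB targets 25 were tested, and 7, among them Tnf, Ccl5 and Ccl20, were below the filter. In the libraries labelled knockout 9 rose and 0 fell against the 18-month controls, 36% of the list beside 4.79% of all genes. The list median was 0.39. The chemokines Cxcl10, Cxcl1 and Cxcl2 had log2 fold changes of 3.29, 2.08 and 1.75 (limma adjusted p = 0.00123, 0.00885 and 0.0058). The other 6, named after their values were seen, were Irf1, Ccl2, Icam1, Gadd45b, Ier3 and Sele, with log2 fold changes of 0.59 to 1.70. Of the 25 estimates 20 were above 0. The listed adhesion molecule genes were divided: Icam1 and Sele were called, and Vcam1 and Selp were not. The log2 fold changes of Vcam1 and Selp were 0.39 and -0.002 (limma adjusted p = 0.200 and 0.995). With age 6 fell and 0 rose, 24% of the list beside 3.99% of all genes, with a list median of -0.30. All 6 (Cxcl10, Cxcl1, Cxcl2, Ccl2, Irf1 and Sele) were among the 9. The log2 fold changes with age of Cxcl10, Cxcl1 and Cxcl2 were -2.21, -1.77 and -1.47 (limma adjusted p = 0.0168, 0.0347 and 0.0231). Both comparisons share the 18-month controls. In the comparison with age the summed level of the stromal, osteoblast and adipocyte markers was also lower without overlap. Ibsp, the marker of this list with the highest mean in the 3-month controls, was at 4.19 ± 0.473 FPKM in the 18-month controls. In the 3-month controls Ibsp was at 25.5 ± 11.5 FPKM. The adipocyte hormone gene Adipoq was at 5.97 ± 0.655 FPKM in the 18-month controls and 13.1 ± 1.18 FPKM in the 3-month controls. Single markers differed: Pdgfra, Pdgfrb, Col1a1 and Bglap overlapped between these groups. Pdgfra had the higher mean in the 18-month controls, at 0.51 FPKM against 0.403 FPKM. Ibsp and Adipoq also separated the 2 groups aged 18 months without overlap, in opposite directions. In libraries labelled knockout Ibsp was higher than in the 18-month controls, at 9.38 ± 1.48 FPKM, and Adipoq was lower, at 3.76 ± 0.682 FPKM. The part of the stromal, osteoblast and adipocyte markers in the values of the targets was not tested. Leaving out 1 library gave 6 to 10 calls for labelled knockout against 18-month controls. With age the count was 6 to 8 without labelled knockout replicate 1 or 2, 5 without labelled knockout replicate 3 or any 18-month control, and 0, 3 and 1 without 3-month control replicate 1, 2 and 3.

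Genes of the immediate early and heat shock response are also inducible by cell isolation. Of 19 tested, 6 rose and 1 fell in libraries labelled knockout against the 18-month controls (36.8% called, beside 4.79% of all genes). With age 1 rose and 3 fell (21.1%, beside 3.99% of all genes). The heat shock genes on the list were Hspa1a, Hspa1b, Hsph1 and Dnajb1 only, and they were not called with age. The heat shock genes Hspa1a and Hspa1b had log2 fold changes of -0.29 and -0.11 in libraries labelled knockout against the 18-month controls (limma adjusted p = 0.535 and 0.841). The heat shock genes Hsph1 and Dnajb1 were called higher there, with log2 fold changes of 1.36 and 0.50 (limma adjusted p = 0.00781 and 0.0281). Of the immediate early genes, Fos, Jun and Junb were not called there (log2 fold changes 0.13, -0.04 and -0.0006, limma adjusted p = 0.638 to 0.999). Atf3 and Egr1 were called higher, with log2 fold changes of 1.04 and 0.70 (limma adjusted p = 0.00385 and 0.00691). Egr2, an early growth response factor, averaged 58.2 ± 2.29 FPKM in libraries labelled knockout and 19.1 ± 0.875 FPKM in the 18-month controls (limma adjusted p = 1.4e-05). The chaperone gene Hsph1 averaged 8.31 ± 2.02 FPKM in libraries labelled knockout and 2.66 ± 0.950 FPKM in the 18-month controls (limma adjusted p = 0.00781). Nr4a2, an orphan nuclear receptor, averaged 28.2 ± 8.46 FPKM in libraries labelled knockout and 11.6 ± 0.312 FPKM in the 18-month controls (limma adjusted p = 0.0075), and Jund, an AP-1 subunit, fell to 334 ± 30.3 FPKM, against 502 ± 55.98 FPKM in the 18-month controls (limma adjusted p = 0.0227). With age Jund rose by 0.60 on the log2 scale, and Nr4a2, Egr2 and the stress-induced factor Atf3 had log2 fold changes of -1.14, -1.09 and -0.61 (limma adjusted p = 0.00208 to 0.0401). The median log2 fold change of this list was 0.41 in libraries labelled knockout and -0.15 with age. Leaving out 1 library gave 5 to 8 calls in this list against the 18-month controls. With age it gave 4 or 5 without labelled knockout replicate 1 or 2 or 18-month control replicate 1, 2 without labelled knockout replicate 3 or 18-month control replicate 2 or 3, and 1 without any 3-month control. Its part in the values of Nfkbia and Nfkbiz was not tested. In none of the lists did a gene pass the test in libraries labelled knockout against the 3-month controls. Of the 87 listed genes 17 had an unadjusted p under 0.05 there, and limma voom called 0. Among all 11796 genes at least 1034 reached that unadjusted level there in limma. The smallest p among the targets there belonged to Irf1, an interferon regulatory factor, at 308 ± 33.1 FPKM in libraries labelled knockout and 198 ± 27.4 FPKM in the 3-month controls (limma adjusted p = 0.115). In the other lists the smallest p belonged to Myd88 (log2 fold change 0.35), Tab3 (-0.46), Nfkbid (0.39) and Egr2 (0.47), with limma adjusted p from 0.0874 to 0.521.

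The list counts also depended on the filter, the weights and the groups in the fit. With no filter on low values, 4 targets, 0 receptors and adaptors, 1 of the other inhibitors and 4 immediate early and heat shock genes were called in libraries labelled knockout against the 18-month controls. With age the counts with no filter were 1, 0, 0 and 1 in the same order of lists. Array weights gave 11, 5, 2 and 11 calls against the 18-month controls and 12, 6, 2 and 8 with age. In fits of the 2 compared groups alone the counts were 6, 1, 1 and 5 against the 18-month controls and 8, 2, 1 and 4 with age. Among the kinases 1 was called with age in the fit of 2 groups alone and with a filter of 5 FPKM, 2 with the GC and length trend removed, and 3 with array weights. Array weights also called 1 kinase against the 18-month controls.

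**Figure D4:**
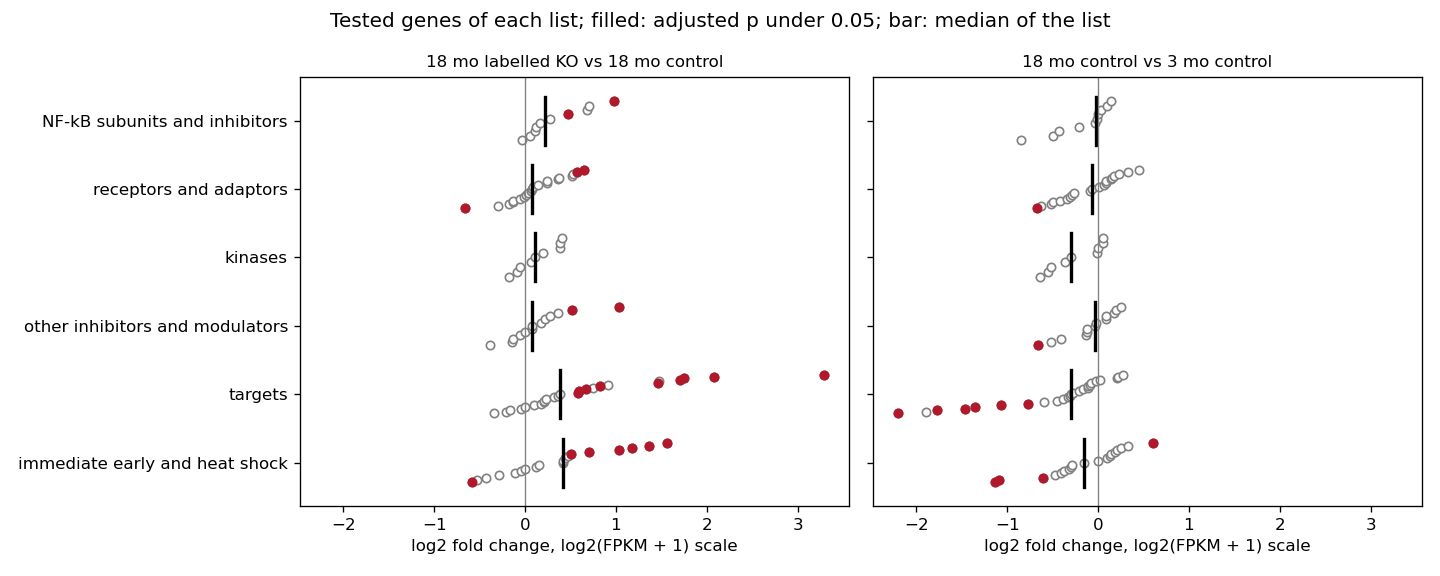
Log2 fold change on the log2(FPKM + 1) scale (x axis) of the tested genes in each list (rows), in libraries labelled knockout against the 18-month controls (left) and in the 18-month against the 3-month controls (right). Each point is 1 gene, filled where the limma adjusted p was under 0.05, and the bar is the list median. On the left 9 targets and 2 members are filled above 0, and on the right 6 targets and 0 members are filled below 0.

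The genes most like the called members were found by the root mean square difference of log2(FPKM + 1), each gene centred on its own mean over the 9 libraries. Nearest to Nfkbiz were Mir22hg, Zc3h12a and Sox7, at differences of 0.11, 0.11 and 0.12, where Nfkbiz itself deviated from its mean by 0.43. Zc3h12a was at 49.3, 41.6 and 32.2 FPKM in libraries labelled knockout, at 20.9, 19.5 and 17.5 FPKM in the 18-month controls, and at 31.1, 29.5 and 32.3 FPKM in the 3-month controls, so it too separated all 3 groups except for 1 labelled knockout library within the 3-month range. Nearest to Nfkbia were Gtf2b, Kti12 and Srsf2, at 0.06, 0.07 and 0.07, where Nfkbia deviated by 0.22.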

How the data were processed

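The authors deposited FPKM values per gene and library, rounded to 2 decimals. The tools FastQC 0.11.5, STAR and edgeR and the builds GRCm38 and mm10 appear per the submitters' processing notes. How reads were counted is not given in the sources. All 52183 gene identifiers matched GENCODE M21 (GRCm38), which gave positions and exon lengths. Depth was recovered from genes of 60 to 400 bases, whose low FPKM were whole multiples of 1 fragment, within 0.1, for 99.6% to 99.8% of 910 to 1534 values per library.

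Values were tested as log2(FPKM + 1), a scale that understates changes of low genes, with limma 3.58.1 in R 4.3.3: 1 fit over 9 libraries and 3 group means (6 residual degrees of freedom), eBayes with a trend, and Benjamini-Hochberg adjustment over the 11796 genes whose mean was 1 FPKM or more (threshold 0.05). The script was tested on simulated data. The members, lists and rules were chosen with earlier results of these data known. By rule the text names the members, up to 3 called genes per direction of each list or else the 2 with the smallest p, and the 3 genes most like each called member. Other listed genes and cell type markers in the text were named outside this rule, with their values known. Python 3.11.15 and matplotlib 3.10.9 drew the figures. Alternatives are given at the end.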

Additional observations from a re-analysis of the deposited data

How the results depend on the processing

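The 10 members gave 627 log2 fold changes under 21 alternative fits. None reversed while called, 601 kept their side of the threshold, 16 passed it newly and 10 lost it, all 10 of them Nfkbia in the libraries labelled knockout against the 18-month controls. Rel could not be tested with a filter of 5 FPKM. Robust eBayes and pseudocounts of 0.1 and 5 changed no member's call.

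Members called in the libraries labelled knockout against the 18-month controls numbered 2, against 1 with no filter, 1 in the fit of the 2 groups alone, 1 with a replicate block, 4 with array weights and 4 at a threshold of 0.1, and 1 to 3 without 1 library. With age they numbered 0, against 2 with array weights, 1 in the fit of 2 groups, 2 at a threshold of 0.1, 1 with voom, 1 with the GC and length trend removed, and 0 to 1 without 1 library. Against the 3-month controls the libraries labelled knockout had 0 members called, 2 with array weights and 0 in each fit without 1 library. Causes were not tested.

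All genes called with age numbered 471, against 39 with no filter, 2320 with array weights, 716 in the fit of 2 groups, 183 with the replicate block, 1673 at a threshold of 0.1 and 5 to 1039 without 1 library (5, 31 and 12 without 3-month control replicate 1, 2 or 3, and 1039 without labelled knockout replicate 2). Their split was 141 higher and 330 lower, 215 and 200 after median-ratio scaling, and 160 and 199 after quantile normalization. For labelled knockout against 18-month controls the count was 565, against 146 with no filter, 1854 with array weights, 149 in the fit of 2 groups, 1297 at a threshold of 0.1 and 197 to 1159 without 1 library. Against the 3-month controls it was 25, against 15 with no filter, 12 with a filter of 5 FPKM, 621 with array weights, 40 at a threshold of 0.1 and 11 to 31 without 1 library. The voom and trend fits were chosen after seeing the data.

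Replicate numbers did not pair the libraries: deviations of the 9 same-numbered pairs correlated at -0.13 to 0.12, and labelled knockout replicate 1 correlated best with 3-month control replicate 2 (0.17). With the replicate block Nfkbia had an adjusted p of 0.0530 in limma, and Nfkbiz kept its call. Of the list counts the block moved those with age to 2 (immediate early and heat shock) and 0 (other inhibitors and modulators, where Zc3h12a lost its call), and that of other inhibitors and modulators in labelled knockout against 18-month controls to 1. The lowest value of a member rested on 308 fragments.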
